A study of Caenorhabditis elegans with 4 samples.

Results

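The genes described here are 10 core genes of insulin and TOR signalling in Caenorhabditis elegans: daf-2, age-1, akt-1, daf-16, daf-18, let-363, daf-15, rsks-1, raga-1 and rict-1. They were chosen by symbol, and all 10 were found among the 20182 genes of the deposited count table. The data are 4 RNA sequencing libraries of whole young adult worms. Of these, 2 are from a strain with the allele rrr12 of cey-1 and the allele ok858 of cey-4, here the mutant, and 2 are from N2, the usual wild-type strain, here wild type. Both mutated genes encode Y-box proteins, cold shock domain proteins that bind mRNA. The mutant had 33009708 and 24717311 counts per library, and wild type had 29773406 and 31311497.

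In the insulin pathway of the worm, insulin-like peptides act on the receptor DAF-2, which signals through the lipid kinase AGE-1 and the protein kinase AKT-1 to keep the FOXO transcription factor DAF-16 out of the nucleus. The TOR kinase LET-363 works in a growth-promoting complex with DAF-15 and in another complex with RICT-1, and it couples nutrients to translation and autophagy. Both pathways are known in this animal for their control of larval arrest, growth, fat storage and lifespan, and their classical output is set by phosphorylation, which RNA counts do not measure.

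The labels were first checked on the mutated genes. The mutant libraries held 338 and 280 counts of cey-4 and 723 and 609 counts of cey-1, against 23072 and 23781 counts of cey-4 and 4218 and 4042 counts of cey-1 in wild type. In whole animals, fewer cells of a type and less RNA per cell cannot be told apart. Levels are given as CPM, read counts scaled to library size with TMM factors. Markers were called higher or lower by edgeR at an adjusted p under 0.05, where 13.1% of all tested genes were higher and 13.3% lower. Summed levels of tissue markers were 566 to 580 CPM in the mutant and 373 to 388 CPM in wild type for 12 sperm marker rows, of which 11 were higher in the mutant and 0 lower. They were 10350 to 10400 CPM against 7519 to 8059 CPM for 8 body wall muscle markers (3 higher, 0 lower), and 3414 to 3812 CPM against 3052 to 3107 CPM for 9 intestine markers (3 higher, 1 lower). Much of the muscle sum was unc-54, with 5947 and 6114 CPM in the mutant and 3818 and 4071 CPM in wild type. In the intestine sum asp-1 had 1806 and 2155 CPM in the mutant and 1486 and 1499 CPM in wild type. The lower intestine marker, cpr-1, had 311.3 and 298.7 CPM in the mutant and 444.1 and 508.3 CPM in wild type. Oocyte markers summed to 7444 to 7882 CPM in the mutant and 8464 to 9425 CPM in wild type (0 of 12 higher, 2 lower), and germline markers to 2291 to 2390 CPM and 2406 to 2679 CPM (0 of 8 called). Neuron markers summed to 275 to 303 CPM in the mutant and 306 to 308 CPM in wild type (2 of 12 higher, 2 lower), and hypodermis markers to 2061 to 2224 CPM and 2433 to 2909 CPM (1 of 7 higher, 1 lower). These shares, 16.7% each way for neuron and 14.3% each way for hypodermis markers, were near those of all tested genes. So was the share of oocyte markers lower, at 16.7%. The hypodermis sum was mostly col-19 (2076 and 1887 CPM in the mutant and 2299 and 2777 CPM in wild type), and the other 6 markers summed to 148.4 and 173.9 CPM in the mutant and 134.4 and 131.9 CPM in wild type. With the length trend removed 6 oocyte and 3 germline markers were lower, in a fit where 23.6% of all tested genes were higher or lower. In that fit 12 sperm, 4 intestine and 3 muscle markers were higher, but not myo-3 (0.21, edgeR adjusted p = 0.132). Of the neuron markers 0 were then higher and 2 lower, with unc-13 at 0.27 and unc-104 at 0.17. More oocyte and germline markers were called lower without wild-type replicate 2 than in the fit of all libraries as counted. When either mutant replicate was left out, the calls of higher muscle and intestine markers were lost, and fewer sperm markers were called higher. The muscle estimates then moved little (log2 fold change of unc-54 0.65 and 0.62, of myo-3 0.46 and 0.47). The number of genes called over the table also changed when a library was left out. None of the marker genes was at 0 in any library, and the part of tissue make-up in the results below was not tested.

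None of the 10 genes passed the comparison of the mutant with wild type. Of all genes, 13944 could be tested and 26.4% of them passed (edgeR quasi-likelihood test at a Benjamini-Hochberg adjusted p under 0.05), 13.1% higher and 13.3% lower in the mutant, while 0 of the 10 were higher and 0 were lower. At an unadjusted p under 0.05 there were 2, let-363 and daf-15, where 37.9% of all tested genes reached that level. DESeq2 called 0 of the 10 and 20.8% of the 13133 genes to which it gave an adjusted p, and limma on the deposited log2 values called 0 of the 10 and 25.1% of the tested genes. The median log2 fold change, mutant over wild type, was 0.09 over the 10 genes and -0.01 over all tested genes. Every one of the 10 was well counted, with 1197 to 18231 counts per library. Taken over all 10 genes, the 95% intervals of the fold changes ran from 0.797-fold to 1.49-fold, so each lay within a 1.5-fold change in either direction. That of daf-16 only just did, at 1.494-fold. Its log2 fold change without wild-type replicate 1, at 0.59, lay beyond that line, so a larger change of daf-16 is not excluded. With each library's trend on transcript length removed, 0 of the 10 passed, against 23.6% of all tested genes, and the 10 intervals ran from 0.719-fold to 1.33-fold.

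**Figure D1:**
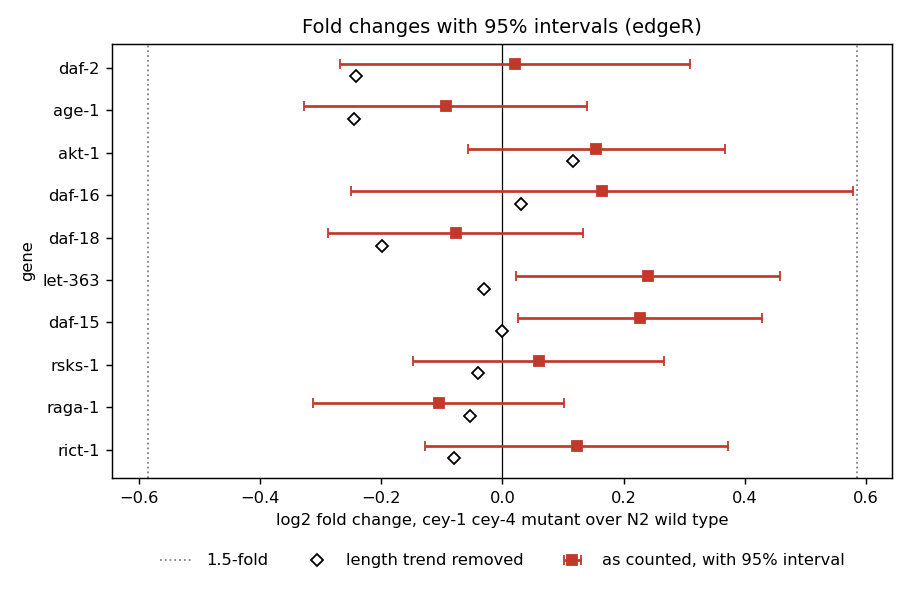
Log2 fold change, cey-1 cey-4 mutant over N2 wild type, of the 10 genes. Squares give the edgeR estimate as counted with its 95% interval, diamonds the estimate with the length trend removed, and dotted lines a 1.5-fold change. All 10 intervals lie between the dotted lines, and those of let-363 and daf-15 lie above 0. The intervals are not adjusted for the number of genes tested.

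The receptor gene daf-2 (WBGene00000898, chromosome III, 2994514 to 3040846, minus strand) had 193.5 and 208.3 CPM in the mutant and 228.1 and 168.0 CPM in wild type. Both mutant values lay between the wild-type values. Its log2 fold change was 0.02 ± 0.13 (SE, edgeR adjusted p = 0.926).

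The gene age-1, which encodes the catalytic subunit of phosphoinositide 3-kinase (WBGene00000090, chromosome II, 11519328 to 11527054, minus strand), had 119.3 and 122.1 CPM in the mutant and 140.8 and 116.7 CPM in wild type. The mutant values again lay within the wild-type range, and the log2 fold change was -0.09 ± 0.11 (edgeR adjusted p = 0.560). The gene daf-18 (WBGene00000913, chromosome IV, 420011 to 425177, minus strand) had 542.4 and 591.6 CPM in the mutant and 621.6 and 574.8 CPM in wild type. The groups overlapped, and the log2 fold change was -0.08 ± 0.10 (edgeR adjusted p = 0.593).

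For akt-1, the gene of the kinase downstream of AGE-1 (WBGene00000102, chromosome V, 10248905 to 10252845, plus strand), the libraries had 139.4 and 153.7 CPM in the mutant and 137.5 and 125.6 CPM in wild type. Both mutant values were above both wild-type values, by little in the nearest pair. The log2 fold change was 0.16 ± 0.10 (edgeR adjusted p = 0.269).

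The FOXO gene daf-16 (WBGene00000912, chromosome I, 10750498 to 10776703, plus strand) had 112.1 and 122.3 CPM in the mutant and 131.2 and 77.8 CPM in wild type. Wild-type replicate 2 was far below the other 3 libraries, and the mutant values lay between the wild-type values. The log2 fold change was 0.17 ± 0.19 (edgeR adjusted p = 0.560), with the widest error of the 10 genes. Without wild-type replicate 1, which leaves replicate 2 alone to stand for wild type, it was 0.59 with an edgeR adjusted p of 4.749e-06, and without wild-type replicate 2 it was -0.16 (adjusted p = 0.281), and over all 13 alternatives the adjusted p ran from 4.749e-06 to 0.920. The call and the direction for daf-16 thus rested on which wild-type library was kept.

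Among the TOR genes, let-363, which encodes the TOR kinase itself (WBGene00002583, chromosome I, 5245743 to 5263424, plus strand), had 464.2 and 500.7 CPM in the mutant and 435.0 and 382.1 CPM in wild type. Both mutant libraries were above both wild-type libraries. Its log2 fold change was 0.24 ± 0.10 (edgeR adjusted p = 0.101). It passed without wild-type replicate 1 (0.34, edgeR adjusted p = 0.00747), as did daf-16, in a fit where 14.8% of all tested genes were higher. The Raptor gene daf-15, whose product presents substrates to the kinase in the growth-promoting complex (WBGene00000911, chromosome IV, 9386208 to 9394979, plus strand), had 472.9 and 505.8 CPM in the mutant and 406.8 and 429.4 CPM in wild type. The groups did not overlap, and the log2 fold change was 0.23 ± 0.09 (edgeR adjusted p = 0.0925). It passed without wild-type replicate 2 (0.27, edgeR adjusted p = 0.0454), where 13.9% of all tested genes were higher. Both genes have long transcripts, 8560 and 5883 bases of merged exon. The length trend between the strains at those lengths was 0.27 and 0.22 on the log2 scale, and with the trend removed their log2 fold changes were -0.03 and 0.00 (edgeR adjusted p = 0.820 and 0.998). Over all 13 alternatives the adjusted p ran from 0.00747 to 0.863 for let-363 and from 0.0454 to 0.998 for daf-15.

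The Rictor gene rict-1, which defines the other TOR complex (WBGene00009245, chromosome II, 13098239 to 13116810, minus strand), had 95.3 and 111.4 CPM in the mutant and 102.5 and 87.3 CPM in wild type. The groups overlapped, and the log2 fold change was 0.12 ± 0.11 (edgeR adjusted p = 0.466). The ratio of daf-15 to rict-1 per kilobase of exon, which sets the transcripts of the 2 complexes' defining subunits against each other, was 4.24 and 3.88 in the mutant and 3.39 and 4.2 in wild type. That of daf-15 to let-363 was 1.48 and 1.47 in the mutant and 1.36 and 1.64 in wild type. In both ratios the mutant values overlapped or lay within those of wild type.

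The RagA GTPase gene raga-1, part of the amino acid sensor that recruits TOR to the lysosome (WBGene00006414, chromosome II, 11301359 to 11302776, plus strand), had 48.18 and 48.24 CPM in the mutant and 51.21 and 52.46 CPM in wild type. This gene varied least between replicates, and both mutant values were below both wild-type values. The log2 fold change of -0.10 ± 0.09 did not pass (edgeR adjusted p = 0.452). The S6 kinase gene rsks-1, a target of the growth-promoting complex that acts on translation (WBGene00012929, chromosome III, 11245120 to 11252281, plus strand), had 254.2 and 257.5 CPM in the mutant and 260.2 and 230.7 CPM in wild type. Its mutant values lay within the wild-type range, and the log2 fold change was 0.06 ± 0.09 (edgeR adjusted p = 0.683).

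Across the 10 genes the mutant and wild-type libraries did not overlap for 4 (akt-1, let-363, daf-15 and raga-1), against 64.0% of all tested genes. Summed, the 10 genes took 0.247% and 0.263% of the counts of the mutant libraries and 0.248% and 0.224% of those of the wild-type libraries, which again overlapped. As counted, 7 of the 10 log2 fold changes were positive, and with the length trend removed 2 were. The direction within the set therefore depended on the treatment of transcript length. With the trend removed the most negative estimates were those of age-1, daf-2 and daf-18. They were -0.24 (edgeR adjusted p = 0.0797), -0.24 (adjusted p = 0.131) and -0.20 (adjusted p = 0.0967), and none passed. The 95% intervals of these genes in that fit lay wholly on the lower side of no change, but they are not adjusted for the number of genes tested. As counted, 37.9% of all tested genes had an unadjusted edgeR p under 0.05, and the share in that fit is not given here. The intervals were 0.733-fold to 0.971-fold for age-1, 0.719-fold to 0.996-fold for daf-2 and 0.772-fold to 0.983-fold for daf-18. Those of the other members, let-363 and daf-15 among them, spanned no change in that fit. Over all 13 alternatives the lowest adjusted p was 0.0513 for age-1, 0.0506 for daf-2 and 0.0967 for daf-18, and the highest was 0.822, 0.991 and 0.995.

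Coordinates are those of the Ensembl annotation of assembly WBcel235, and the build used for counting was not given in the sources used here. Exon overlaps with other genes were small: 4.89% of the exon bases of age-1 (with B0334.10), 2.28% of daf-16, 1.82% of daf-15 (with col-121), 0.737% of rict-1 (with col-86) and 0.351% of akt-1 (with rop-1), and none for the other 5. Use of strand in counting is not stated, so reads in those stretches cannot be assigned with certainty.

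Levels per kilobase of exon placed the 10 genes in nearly the same order in both strains. The gene daf-18 was highest, at 170 ± 10.5 CPM per kb in the mutant and 180 ± 9.90 CPM per kb in wild type (SD, n = 2 each). It stood above every other gene in every library. Next came rsks-1 (83.9 CPM per kb in the mutant and 80.5 in wild type) and daf-15 (83.2 and 71.1), which overlapped each other. Then followed akt-1 (64.3 in the mutant and 57.8 in wild type) and let-363 (56.4 and 47.7), which also overlapped, and raga-1 (38.1 and 40.9), apart from its neighbours. The lowest 4 genes were age-1 (30.7 CPM per kb in the mutant and 32.8 in wild type), daf-16 (31.8 and 28.4), daf-2 (24.2 and 23.9) and rict-1 (20.6 and 18.9), each overlapping the next. The order of age-1 and daf-16 differed between the strains, within their spread. The receptor and FOXO genes at the ends of the insulin pathway were among the lowest of the set. Exon length is the merged length over all annotated isoforms, so a gene with many isoforms, such as daf-16, can be set too low on this scale.

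**Figure D2:**
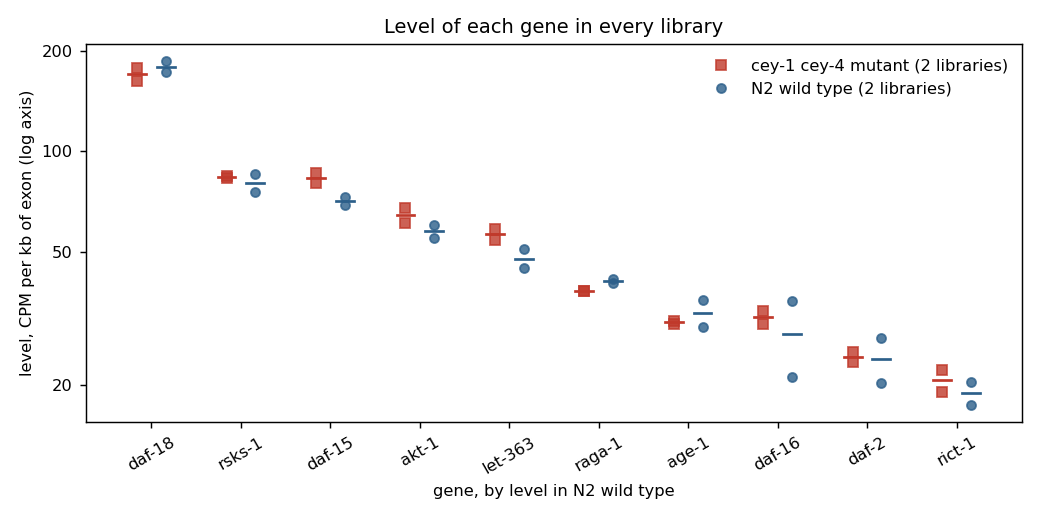
Level of each gene in CPM per kilobase of merged exon, on a log axis, in the 2 mutant libraries (squares, left) and the 2 wild-type libraries (circles, right), with bars at the means. Genes run from daf-18, highest, to rict-1, lowest in wild type, and the 2 wild-type circles of daf-16 are the farthest apart.

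The difference between replicates was smaller in the mutant than in wild type for 7 of the 10 genes. Mutant replicate 2 minus 1 ran from 0.00 (raga-1) to 0.22 (rict-1) on the log2(CPM + 0.5) scale. It was positive for all 10 genes and for 6868 of the 13944 tested genes. Wild-type replicate 2 minus 1 was -0.75 for daf-16, -0.44 for daf-2 and -0.27 for age-1. That difference was negative for 8 of the 10 genes and for 6061 of the 13944 tested genes. The absolute wild-type difference of daf-16 was larger than that of 99.2% of all tested genes, and that of daf-2 larger than that of 92.6%. The length trend between the wild-type replicates was -0.06 at the length of daf-16 and -0.11 at that of daf-2. For daf-16 the differences of the 4 pairs of a mutant and a wild-type library ran from -0.23 to 0.65, so that their sign depended on the wild-type library used. For daf-15 the 4 differences were all positive, from 0.14 to 0.31, and for let-363 from 0.09 to 0.39.

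**Figure D3:**
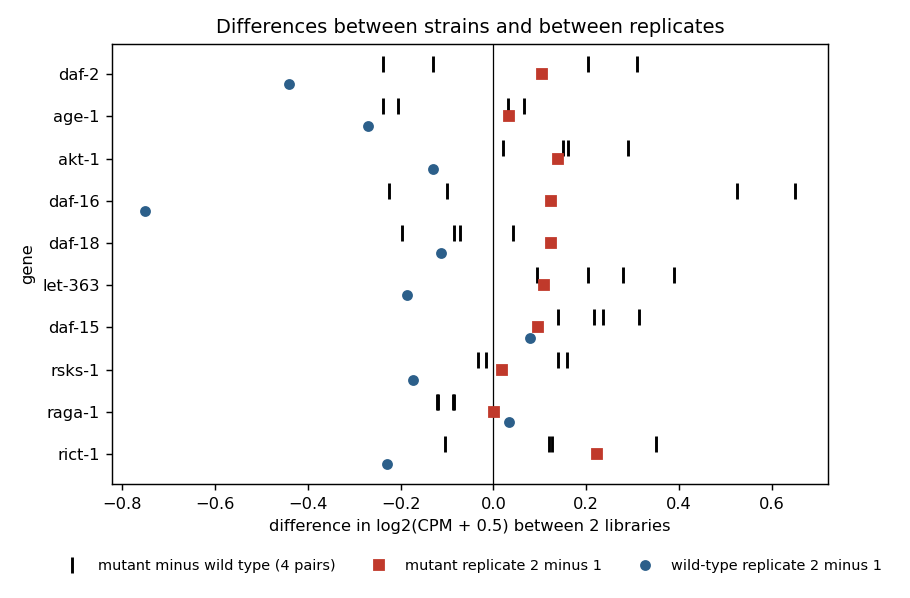
Differences in log2(CPM + 0.5) between 2 libraries for each gene: the 4 mutant minus wild-type pairs (black ticks), mutant replicate 2 minus 1 (squares) and wild-type replicate 2 minus 1 (circles). The wild-type replicate difference of daf-16, at -0.75, is larger than any of its differences between the strains.

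The ligands of the receptor were weakly counted. Of 40 insulin-like peptide genes on the list, 39 were in the table and 16 passed the expression filter, and the other 23 had at most 20 counts in any library, with 5 of them at 0 in all 4. Of the 16, 3 were lower (18.8%) and 1 higher (6.2%), where 13.3% of all tested genes were lower and 13.1% higher. The lower ligands numbered 1 with DESeq2, 0 among genes averaging at least 50 counts and 5 with no filter. A weak gene can pass the filter through the group in which it is high, so these counts describe the tested ligands only. The ligand gene ins-37, the most counted of them, rose to 7.27 and 7.17 CPM in the mutant, against 3.99 and 4.23 CPM in wild type (log2 fold change 0.81 ± 0.15, edgeR adjusted p = 0.00323). Its exons overlap 2 annotated noncoding RNA genes. The ligand gene ins-6, whose product acts on DAF-2 as an agonist, had 13 and 8 counts in the mutant and 34 and 27 counts in wild type, and fell by 1.48 ± 0.36 on the log2 scale (edgeR adjusted p = 0.0123). Further lower genes were ins-27 (37 and 21 counts in the mutant and 55 and 77 in wild type, log2 fold change -1.13) and ins-22 (8 and 3 counts in the mutant and 18 and 19 in wild type, log2 fold change -1.68). None of these 3 lower ligands was called when either mutant replicate was left out, and ins-6 was not called by DESeq2 (-1.49, adjusted p = 0.0735). Without mutant replicate 1 the log2 fold changes were -1.62 for ins-6, -1.34 for ins-27 and -2.28 for ins-22, and without mutant replicate 2 they were -1.34, -0.94 and -1.31.

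Of 19 further insulin pathway genes, 17 did not pass, 2 were lower (10.5%, near the 13.3% of all tested genes) and 0 higher (median log2 fold change 0.04). The 2 lower genes were par-5 and prmt-1. The gene par-5, which encodes a 14-3-3 protein of the kind that holds phosphorylated DAF-16 in the cytoplasm, had 487.1 and 480.9 CPM in the mutant and 608.2 and 679.5 CPM in wild type (log2 fold change -0.41 ± 0.09, edgeR adjusted p = 0.00950). The gene prmt-1, which encodes an arginine methyltransferase that acts on DAF-16, had 382.1 and 418.0 CPM in the mutant and 519.4 and 576.4 CPM in wild type (-0.45 ± 0.10, edgeR adjusted p = 0.00686). All mutant values of both genes were below all wild-type values, and both calls were lost without either mutant replicate (par-5 -0.41 and -0.37, prmt-1 -0.37 and -0.49). More of the 19 genes were called lower without wild-type replicate 2, and a call as higher arose without wild-type replicate 1. The list also held ist-1, aap-1, pdk-1, akt-2 and sgk-1, the adaptor, regulatory and kinase genes nearest to the core, with log2 fold changes from -0.10 to 0.20. These 5 were named after their values were seen.

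Of 14 further TOR genes, 0 were higher and 0 lower, where 26.4% of all tested genes were called (median log2 fold change 0.06). DESeq2 and limma also called 0, and 1, hlh-30, had an unadjusted p under 0.05, against 37.9% of all tested genes. Without wild-type replicate 1 hlh-30 and flcn-1 were called higher, a share near that of all tested genes in that fit. With no filter on low counts hlh-30 was called higher, where 4175 genes were called over the table. Both genes were named after their values were seen. The most counted, ragc-1, which encodes the GTPase partner of RAGA-1, had 109.5 and 108.2 CPM in the mutant and 116.7 and 125.5 CPM in wild type (log2 fold change -0.15 ± 0.09, edgeR adjusted p = 0.243). Of 27 autophagy genes, whose process TOR restrains, 1 was higher and 1 lower (3.7% each, against 13.1% and 13.3% of all tested genes, median log2 fold change 0.03), and DESeq2 called 0 of them. The most counted of them, the Atg8 gene lgg-1, had 113.4 and 103.0 CPM in the mutant and 93.7 and 120.2 CPM in wild type, which overlapped (0.02 ± 0.12, edgeR adjusted p = 0.934). The Atg4 protease gene atg-4.2 rose (0.40, edgeR adjusted p = 0.0439) and epg-2 fell (-0.40, edgeR adjusted p = 0.0390). Both were near the threshold and were not called without mutant replicate 1 (0.51 and -0.37), without mutant replicate 2 (0.34 and -0.39) or without wild-type replicate 1 (0.35 and -0.31). DESeq2 called neither (adjusted p = 0.0865 and 0.105), and epg-2 was also lost with library size alone, limma and a mean of at least 50 counts. Other fits called more autophagy genes. With no filter on low counts 2 were higher and 2 lower. With the length trend removed and a replicate block 2 were higher and 1 lower. More were called lower without wild-type replicate 2, so the count depended on that library.

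Known transcriptional targets of DAF-16 moved in more than 1 direction. Of 21 rows of genes that DAF-16 is known to activate, 12 were tested, of which 5 were lower (41.7%) and 0 higher, where 13.3% of all tested genes were lower and 13.1% higher (median log2 fold change -0.14). Fewer were called lower when either mutant replicate was left out, and the number called over the table also changed when a library was left out. The other 9 rows, among them heat shock genes such as hsp-12.6 and hsp-16.2, had at most 20 counts in any library. The list and its limits were chosen with earlier results of these data known, so this count stands as a description. The gene sod-3, which encodes a mitochondrial superoxide dismutase and is widely used as a reporter of DAF-16 activity, had 45 and 43 counts in the mutant and 87 and 101 counts in wild type (log2 fold change -1.03 ± 0.22, edgeR adjusted p = 0.00640, not called without mutant replicate 1, -0.82). The gene dod-6, named for its place downstream of DAF-16, had 1.11 and 1.09 CPM in the mutant and 2.97 and 5.86 CPM in wild type (-2.01 ± 0.33, edgeR adjusted p = 0.00183). The glyoxylate cycle gene icl-1 had 114.9 and 112.3 CPM in the mutant and 153.5 and 155.9 CPM in wild type (-0.45 ± 0.09, edgeR adjusted p = 0.00453). The aquaporin gene aqp-1 (-0.45) and the small heat shock protein gene sip-1 (-0.46) were lower as well. The calls of icl-1, aqp-1 and sip-1 were lost without either mutant replicate (icl-1 -0.45 and -0.40, aqp-1 -0.51 and -0.35, sip-1 -0.50 and -0.37), and that of sip-1 with the length trend removed (-0.23). Other activated targets did not pass, among them mtl-1 (0.70 ± 0.46), nnt-1 (0.80 ± 0.27) and lys-7 (0.20 ± 0.10), a lysozyme gene that was higher with the length trend removed (0.35). With DESeq2 size factors, library size alone, limma or no filter on low counts, nnt-1 was called higher. In the fit of all libraries as counted, nnt-1 narrowly missed a call (edgeR adjusted p = 0.0514). The replicate block gave 1 activated target higher and 5 lower. Removing the length trend and adding the block gave 3 higher and 4 lower. Calls as higher also arose for nnt-1 and ctl-2 without wild-type replicate 1 and for mtl-1 without wild-type replicate 2. In both of those fits more of all tested genes were called higher as well. The genes mtl-1, nnt-1, ctl-2 and lys-7 were named after their values were seen. Exons of sip-1 (19.2%, with F43D9.8), aqp-1 (9.01%, with ctsa-3.1) and sod-3 (7.38%, with C08A9.3, and 2.72%, with lido-1) overlap genes on the opposite strand.

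Of 9 genes that DAF-16 is known to repress, 7 were tested, of which 2 were higher and 2 lower (28.6% each, against 13.1% and 13.3% of all tested genes, median log2 fold change -0.16 as counted and 0.08 with the length trend removed). The gene dod-23 rose to 58.4 and 53.8 CPM in the mutant, against 27.1 and 30.7 CPM in wild type (0.95 ± 0.11, edgeR adjusted p = 0.000366). The gene dod-24 had 31.2 ± 0.079 CPM in the mutant and 23.5 ± 3.57 CPM in wild type (SD, n = 2 each; log2 fold change 0.41 ± 0.12, edgeR adjusted p = 0.0326), a call lost without either mutant replicate (0.42 and 0.44) or without wild-type replicate 1 (0.26). In the other direction dod-19 had 77.3 and 66.4 CPM in the mutant and 105.2 and 128.7 CPM in wild type (-0.70 ± 0.12, edgeR adjusted p = 0.00229, not called without mutant replicate 2, -0.57). The gene dod-17 had 15.4 ± 0.037 CPM in the mutant and 23.97 ± 2.90 CPM in wild type (-0.64 ± 0.12, edgeR adjusted p = 0.00399, not called without either mutant replicate, -0.62 and -0.61). The log2 fold changes of the tested targets, activated or repressed, ran from -2.01 to 0.95, and those of the 10 core genes from -0.10 to 0.24. The lowest target, dod-6, was weakly counted, with 27 to 183 counts per library, where the core genes had 1197 to 18231.

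**Figure D4:**
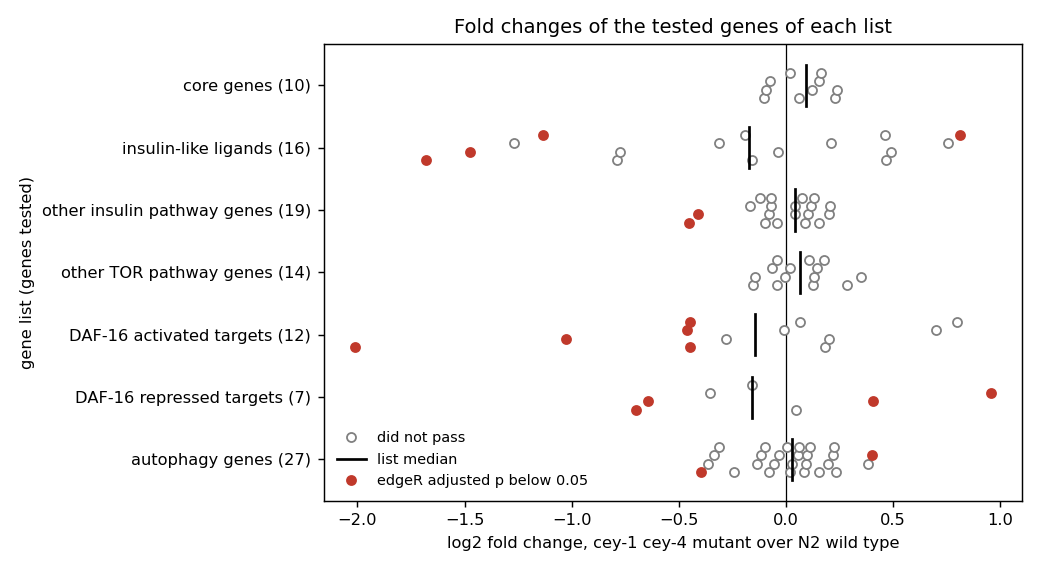
Log2 fold changes, cey-1 cey-4 mutant over N2 wild type, of the tested genes of each list, with filled points for edgeR adjusted p below 0.05 and a black bar at the list median. The 10 core genes lie between -0.10 and 0.24 with no filled point, and the filled points of the ligands and of the DAF-16 targets lie on both sides of 0 or, for activated targets, below it.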

How the data were processed

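The authors deposited raw counts per gene for the 4 libraries, prepared with ScriptSeq v2 reagents from Trizol RNA, per the labels' protocols. How reads were aligned and counted, on which build and with which strand setting, was not given in the sources used here. Deposited log2 values are these counts on another scale, brought to 1 library total with 8 added before the logarithm (they differ by at most 0.00051). Separate cultures are not stated, so the p-values cover only the spread among these libraries, which may be technical. No library was a copy of another (chi-square of replicate counts per degree of freedom 9.06 in the mutant and 30.7 in wild type).

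All 13944 genes that passed the default filter of edgeR 4.0.16 (R 4.3.3) were fitted together by its quasi-likelihood F test with TMM factors, and p-values were adjusted over all of them at a threshold of 0.05. Standard errors are the log2 fold change over the square root of the F statistic, and intervals use the degrees of freedom of the test. Alternatives were other scalings, DESeq2 1.42.0, limma 3.58.1, other filters, each replicate left out, a replicate block, and a fit in which a lowess curve of each library on exon length (Ensembl release 115) was taken out. The code was tested on simulated data.

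The members and all gene lists were chosen with earlier results of these data known. From each list the text names the most counted tested gene and up to 5 called genes with the largest change. For hsp-16.1 and ssp-9, 2 rows each share a symbol. Gene and protein sequences were not used here. At totals of 24717311 to 33009708 counts per library, counting error is small for the 10 genes, and having 2 libraries per strain is what limits precision.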

Additional observations from a re-analysis of the deposited data

How the results depend on the processing

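The calls of the 10 genes did not depend on scaling, tool or filter: 0 were higher and 0 lower with DESeq2 size factors, library size alone, DESeq2, limma, either other filter, the replicate block, or the length trend removed with or without the block. Some came close to the threshold. The edgeR adjusted p was 0.05009 for let-363 with no filter and 0.0557 for daf-15 with a mean of at least 50 counts. It was 0.0513 for age-1, as lower, with the length trend removed and the block. Leaving out a library gave 0 to 2 members higher and 0 lower, and 1281 to 4389 genes called over the table, against 3679 with all 4 libraries. Those fits leave a lone library that is assumed to vary like the other strain's, and 12 of the 17 called genes named from the other lists were lost without either mutant replicate. The 3 called in all 13 alternatives were ins-37, dod-6 and dod-23. Some estimates changed sign, among them let-363, the largest of the 10 as counted (0.24). With the length trend removed the reversed ones were daf-2 (-0.241), let-363 (-0.031), rsks-1 (-0.040) and rict-1 (-0.079), and with the block added -0.232, -0.030, -0.039 and -0.079. Over the 4 fits with a library left out, the log2 fold change ran from -0.184 to 0.258 for daf-2, -0.223 to 0.049 for age-1, -0.164 to 0.591 for daf-16, -0.025 to 0.149 for rsks-1 and -0.151 to 0.208 for lgg-1.

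Replicate numbers were not stated to pair samples, and deviations of same-numbered libraries correlated at -0.073. The replicate block gave 3519 calls over the table and 0 among the 10 genes.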
